A study of Mus musculus with 9 samples.

Results

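MN1-TEL del DBD is the MN1-TEL fusion with a deletion that the labels name DBD, which usually stands for DNA-binding domain, and it is called del DBD hereafter. The arrays of del DBD and of MN1-TEL, chosen by the construct named in the sample labels, made up 6 of the 9 arrays of the series, 3 per construct, and all genes measured on them were compared. In every group, bone marrow cells that were c-kit-enriched, from C57/Bl6 mice, had been infected with a retrovirus that carried del DBD, MN1-TEL or, in the remaining 3 arrays, MN1 alone. Liquid culture then lasted 10 days, with SCF at 20 ng/µl and both IL-6 and IL-3 at 10 ng/µl, before total RNA was hybridised to single-colour Illumina mouse BeadChips. The residues removed in del DBD, the promoter of the retroviral vector and any selection of infected cells were not stated in those labels. Nothing in the labels says that replicates came from separate cultures: the p-values measure how far these arrays spread, which may be technical variation, and with 3 arrays per construct the precision is limited.

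TEL, encoded by Etv6, is a transcription factor of the ETS family. ETS proteins read DNA through a winged helix domain that recognises a GGAA core, and TEL mostly represses transcription there together with histone deacetylases. MN1 is a coactivator that works with retinoid receptors, has no known DNA-binding domain of its own and transforms mouse bone marrow cells. The fusion, found in human myeloid leukaemia, joins most of MN1 to the part of TEL that holds the ETS domain, so its deletion asks which genes of these cells depend on that domain. The series title names the independence of MN1 leukaemia from Bmi1, a Polycomb gene.

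Values are log2 normalized intensities of 1 probe per gene, and differences are del DBD minus MN1-TEL. A gene was called where limma's adjusted p, taken over all 9136 genes tested, was under 0.05. The del DBD arrays correlated with each other at 0.992 to 0.994 across genes and the MN1-TEL arrays at 0.975 to 0.990, while pairs of a del DBD and an MN1-TEL array gave 0.942 to 0.954. MN1-TEL replicate 2 stood apart from its group: 125 genes lay more than 1 log2 unit from the group mean there, against 19 and 24 on the other MN1-TEL arrays and 2 to 4 on the del DBD arrays. An array detected 14249 to 15273 of its 45281 probes. The constructs could not be checked on the arrays. Mn1 had 1 probe, which was detected on none of the 9 arrays, and Etv6 measured 8.87, 8.71 and 8.48 in del DBD arrays, against 8.80, 8.62 and 8.88 in MN1-TEL arrays, a difference of -0.08 (SE 0.12, adjusted p = 0.668). Kit, the receptor by which the starting cells were enriched, was detected on every array.

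The del DBD and MN1-TEL arrays differed in a large part of the transcriptome, in both directions. Of 9136 genes, 2689 were called, which is 29.4% of those tested: 1373 were higher in del DBD (15%) and 1316 lower (14.4%). A change of at least 2-fold was met by 847 genes (9.27%), 412 of them higher (4.51%) and 435 lower (4.76%), and of at least 8-fold by 32 higher and 29 lower. The arrays of the groups did not overlap for 3832 genes (41.9%), with del DBD higher in 21.7% of all genes tested and lower in 20.2%. The median difference over all genes was 0.02, and the median size of a difference was 0.27 with a median SE of 0.15. When arrays were scaled to a common median, the calls split into 1030 higher and 1606 lower, so that 39.1% of them were higher, against 51.1% after quantile normalization, and the median over all genes was -0.07. Without MN1-TEL replicate 2 there were 3277 calls, 1823 higher and 1454 lower. At the edge of the threshold lay Pdap1, called at 0.43 with an adjusted p of 0.0499, and Smyd2, not called at -0.30 with 0.0502.

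**Figure D1:**
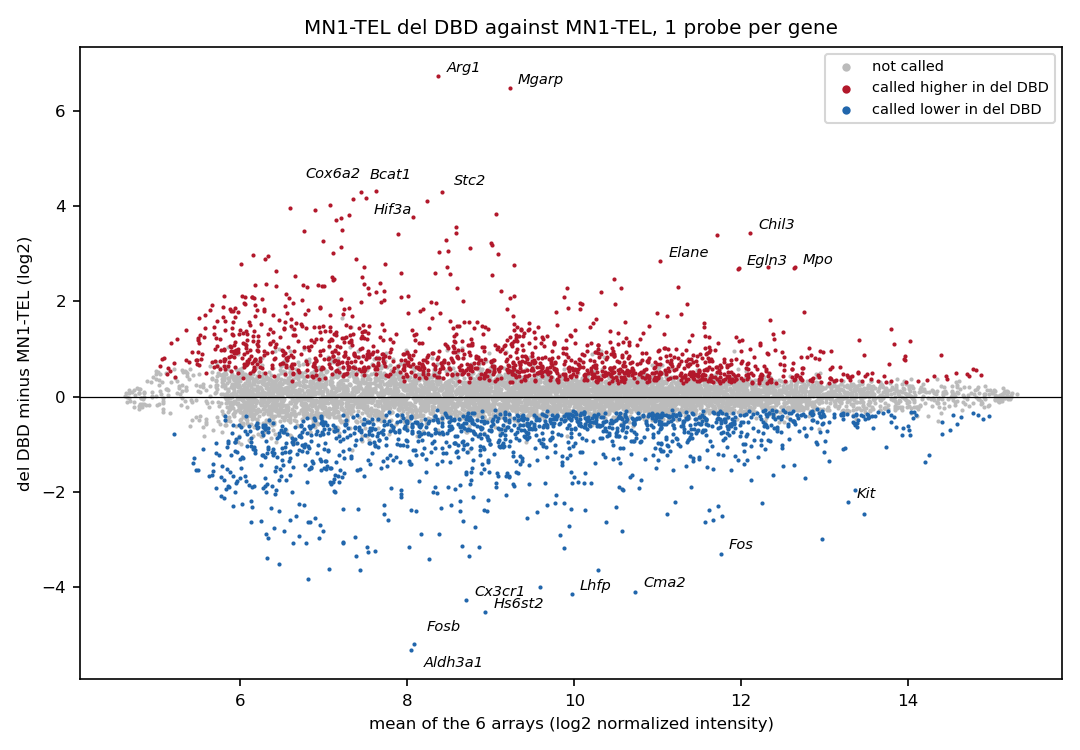
Difference between del DBD and MN1-TEL (log2, vertical axis) against the mean log2 normalized intensity of the 6 arrays (horizontal axis), with 1 point per gene. The 1373 genes called higher in del DBD are red, the 1316 called lower are blue and genes not called are grey. Calls reach from background to the brightest probes, with Arg1 and Mgarp as the highest points.

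The largest fitted rises held genes of metabolism that were near background with the complete fusion. Arg1, the cytosolic arginase of the urea cycle that some myeloid cells also express, measured 12.32, 11.23 and 11.69 in del DBD arrays, against 4.76, 5.47 and 4.76 in MN1-TEL arrays, where it was not detected on any. All 3 del DBD arrays were bright, and Arg1 was at least 51.5-fold higher (adjusted p = 3.15e-06). Bounds of this kind are used for a gene not detected on at least 1 array of the group where it is dimmer: the mean of the brighter group is divided by that of the dimmer one, in which each array counts the gene's signal or its lowest detected probe, whichever is higher. Mgarp, a mitochondrial protein that takes part in the transport of mitochondria, measured 12.26, 12.49 and 12.66 in del DBD arrays, against 5.73, 6.78 and 5.45 in MN1-TEL arrays and 12.17, 12.57 and 12.47 in MN1 arrays. It was detected on 1 MN1-TEL array and was at least 74.8-fold higher (adjusted p = 3.15e-06). The levels with del DBD and with MN1 overlapped, while every MN1-TEL array was low.

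Further metabolic genes were among the 12 largest fitted rises. Fitted differences set this order, also where only a bound can be given, so the bounds of Car4 and Fbp2 lie below the folds of some genes outside the 12, such as 10.9-fold for Chil3 and 9.04-fold for Ankrd37. Cox6a2, the muscle-type form of a cytochrome c oxidase subunit, measured 10.10, 9.41 and 9.86 in del DBD arrays, against 5.14, 6.47 and 4.80 in MN1-TEL arrays, and was at least 12.5-fold higher (adjusted p = 5.23e-05). Bcat1, which transfers the amino group of branched-chain amino acids, measured 9.74, 9.62 and 9.43 in del DBD arrays, against 5.10, 5.62 and 5.16 in MN1-TEL arrays. It was at least 11.6-fold higher (adjusted p = 1.52e-06) and lay higher still in MN1 arrays, at 11.71, 11.73 and 11.52. Car4, a membrane-anchored carbonic anhydrase, was not detected on any MN1-TEL or MN1 array, and its values of 8.14, 8.66 and 8.93 in del DBD arrays made it at least 5.73-fold higher (adjusted p = 3.78e-06) than in MN1-TEL. Fbp2, the muscle form of the gluconeogenic enzyme fructose bisphosphatase, was at least 6.94-fold higher (adjusted p = 3.60e-05). Hif3a, a hypoxia-inducible factor subunit, was at least 11.6-fold higher (adjusted p = 3.78e-06), the secreted glycoprotein gene Stc2 was at least 19.6-fold higher (adjusted p = 2.59e-06), and C2cd4a was at least 10.3-fold higher (adjusted p = 1.43e-05). Cd27, a receptor of the tumour necrosis factor receptor family, was at least 8.19-fold higher (adjusted p = 6.68e-06) at its brighter probe, while its other probe gave 0.32 (adjusted p = 0.303 in a fit of every probe).

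The largest fitted falls, ordered in the same way, mixed stress, surface and mast cell genes. Aldh3a1, an aldehyde dehydrogenase, measured 5.81, 4.98 and 5.33 in del DBD arrays, where it was not detected, against 11.24, 10.47 and 10.43 in MN1-TEL arrays, and was at least 26.1-fold lower (adjusted p = 5.62e-06). Fosb, a component of the AP-1 transcription factor, measured 5.62, 5.42 and 5.42 in del DBD arrays, against 11.33, 9.82 and 10.91 in MN1-TEL arrays, and was at least 25.6-fold lower (adjusted p = 8.05e-06). No del DBD array came within 4 log2 units of an MN1-TEL array for either gene. Hs6st2, which adds sulfate to heparan sulfate, measured 7.17, 6.39 and 6.43 in del DBD arrays, against 11.59, 11 and 11.03 in MN1-TEL arrays, and fell by 4.54 (SE 0.28, adjusted p = 8.62e-06) or 23.3-fold. Cx3cr1, the receptor of fractalkine on monocytes, measured 6.53, 6.54 and 6.63 in del DBD arrays, against 11.36, 10.23 and 10.96 in MN1-TEL arrays, and fell by 4.28 (SE 0.31, adjusted p = 2.22e-05). Lhfp, a tetraspan membrane protein, fell by 4.16 (SE 0.28, adjusted p = 1.43e-05). Arg2, the mitochondrial arginase, measured 5.38, 5.57 and 5.86 in del DBD arrays, against 9.01, 9.58 and 9.18 in MN1-TEL arrays, and was at least 9.48-fold lower (adjusted p = 4.32e-06), so the 2 arginase genes moved in opposite directions. The adaptor gene Skap1 was at least 7.3-fold lower (adjusted p = 4.53e-06), the glycosyltransferase gene B4galnt2 at least 6.62-fold lower (adjusted p = 6.68e-06) and Fstl1, a secreted glycoprotein, at least 4.66-fold lower (adjusted p = 1.14e-05). The bounds of B4galnt2 and Fstl1 lie below falls outside the 12, such as 10.7-fold for Hpgds and 9.88-fold for Fos.

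**Figure D2:**
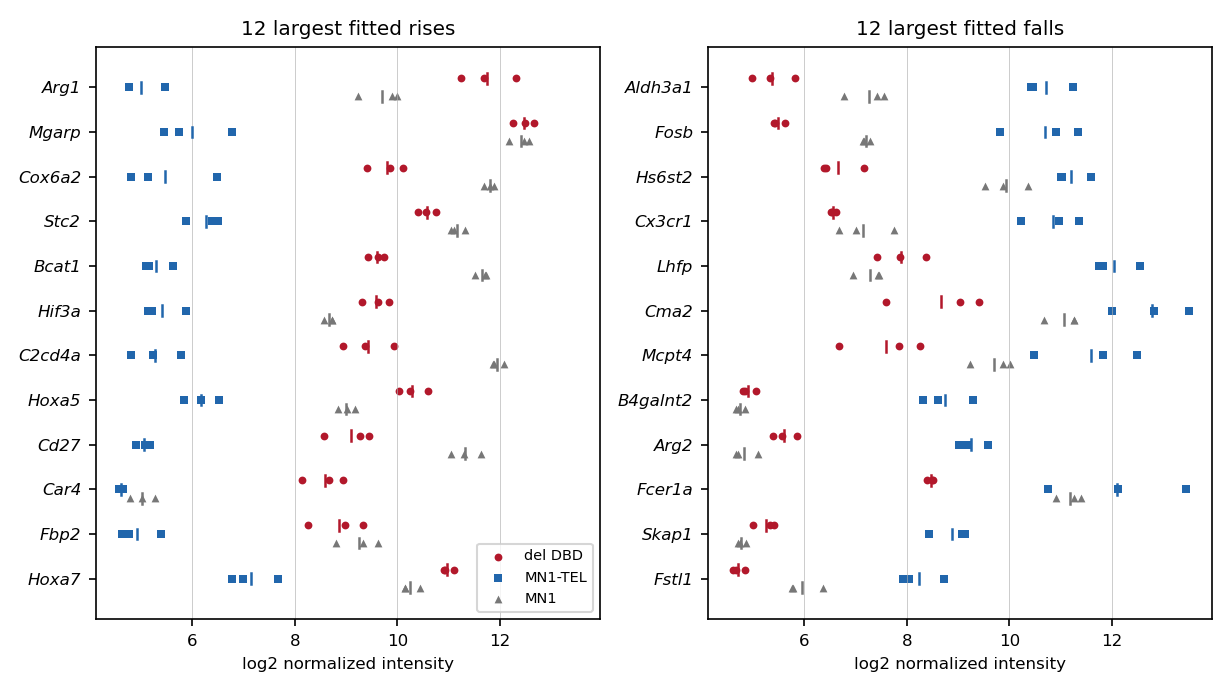
Log2 normalized intensity (horizontal axes) of the 12 largest fitted rises (left) and 12 largest fitted falls (right) on each array, with del DBD as red circles, MN1-TEL as blue squares, MN1 as grey triangles and a short bar at each mean. The 24 genes were chosen among calls without overlap between the groups, so by that rule every del DBD array lies on the same side of every MN1-TEL array.

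Because an ETS domain reads GGAA, promoter windows of genes with large changes are shown, from 250 bases before to 50 after the transcription start, as RefSeq gives them on GRCm38.p6. Only windows that hold GGAA on either strand could be shown, so the presence of the core in them is no result. The table of windows held 10 of the 12 genes with the largest fitted rises and 8 of the 12 with the largest fitted falls. All windows shown lie on the minus strand of the chromosome and read 5′ to 3′ along the gene, with each GGAA, or TTCC where the core lies on the other strand, in capitals. The first 2 belong to genes higher in del DBD, Mgarp at chr3:51396498-51396797 and Stc2 at chr11:31370012-31370311. The next 2 belong to genes lower in del DBD, Fosb at chr7:19309996-19310295 and Hs6st2 at chrX:51681553-51681852, the window of 1 of its 2 annotated starts.
Mgarp: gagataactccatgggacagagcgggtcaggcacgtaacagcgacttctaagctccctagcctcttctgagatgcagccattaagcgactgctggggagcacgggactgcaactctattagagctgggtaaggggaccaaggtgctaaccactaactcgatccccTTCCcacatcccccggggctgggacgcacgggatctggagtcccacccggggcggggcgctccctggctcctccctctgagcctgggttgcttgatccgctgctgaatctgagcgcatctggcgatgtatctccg
Stc2: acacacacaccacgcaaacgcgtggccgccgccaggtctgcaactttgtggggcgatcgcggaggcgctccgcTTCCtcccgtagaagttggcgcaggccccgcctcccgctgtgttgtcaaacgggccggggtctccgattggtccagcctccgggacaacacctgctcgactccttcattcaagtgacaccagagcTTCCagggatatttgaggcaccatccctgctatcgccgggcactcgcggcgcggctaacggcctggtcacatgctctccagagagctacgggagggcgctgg
Fosb: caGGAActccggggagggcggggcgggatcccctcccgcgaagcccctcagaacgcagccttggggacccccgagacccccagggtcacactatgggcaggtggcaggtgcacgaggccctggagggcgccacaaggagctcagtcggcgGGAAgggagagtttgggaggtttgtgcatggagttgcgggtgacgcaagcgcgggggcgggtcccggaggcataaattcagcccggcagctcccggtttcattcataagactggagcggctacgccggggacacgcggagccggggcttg
Hs6st2: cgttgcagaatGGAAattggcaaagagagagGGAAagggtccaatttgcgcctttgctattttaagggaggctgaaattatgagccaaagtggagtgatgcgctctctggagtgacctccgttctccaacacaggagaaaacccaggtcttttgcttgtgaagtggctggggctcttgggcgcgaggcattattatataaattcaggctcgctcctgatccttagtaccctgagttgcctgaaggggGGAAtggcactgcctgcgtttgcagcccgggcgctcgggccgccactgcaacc
GGAA stood on either strand in 96.0% of all 32851 windows in the table, in 95.7% of the windows of tested genes, in 96.0% of those of genes higher in del DBD and in 94.2% of those of genes lower. A longer ETS consensus, GGAA with CC before and GT after it, contains the core and was held by 8.41% of the windows of tested genes. It was held by 5.71% of the windows of genes higher in del DBD, by 6.93% of those of genes lower and by 9.33% of those of genes not called. Among genes changed at least 2-fold these shares were 4.07% for those higher, 18 of 442 windows, and 1.09% for those lower, 5 of 457. None of the 4 windows above holds the longer form. These are counts of letters near annotated starts and not of binding.

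For gene groups, 37 lists of pathways, complexes and cell type markers were counted, with 2689 calls among 9136 genes as the background given above and a median of 0.02 over all genes. The largest shares of called members, in lists of at least 10 measured genes, were 89.7% in Glycolysis and hypoxia, 66.7% in Immediate early genes, 65.4% in Mast cell and basophil and 65% in Chemokines and receptors. The smallest were 6.06% in Proliferation and 12.5% in the ETS family. The lists and their members were chosen with earlier results of these data known. Their shares here and below therefore describe these arrays and are no independent support.

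**Figure D3:**
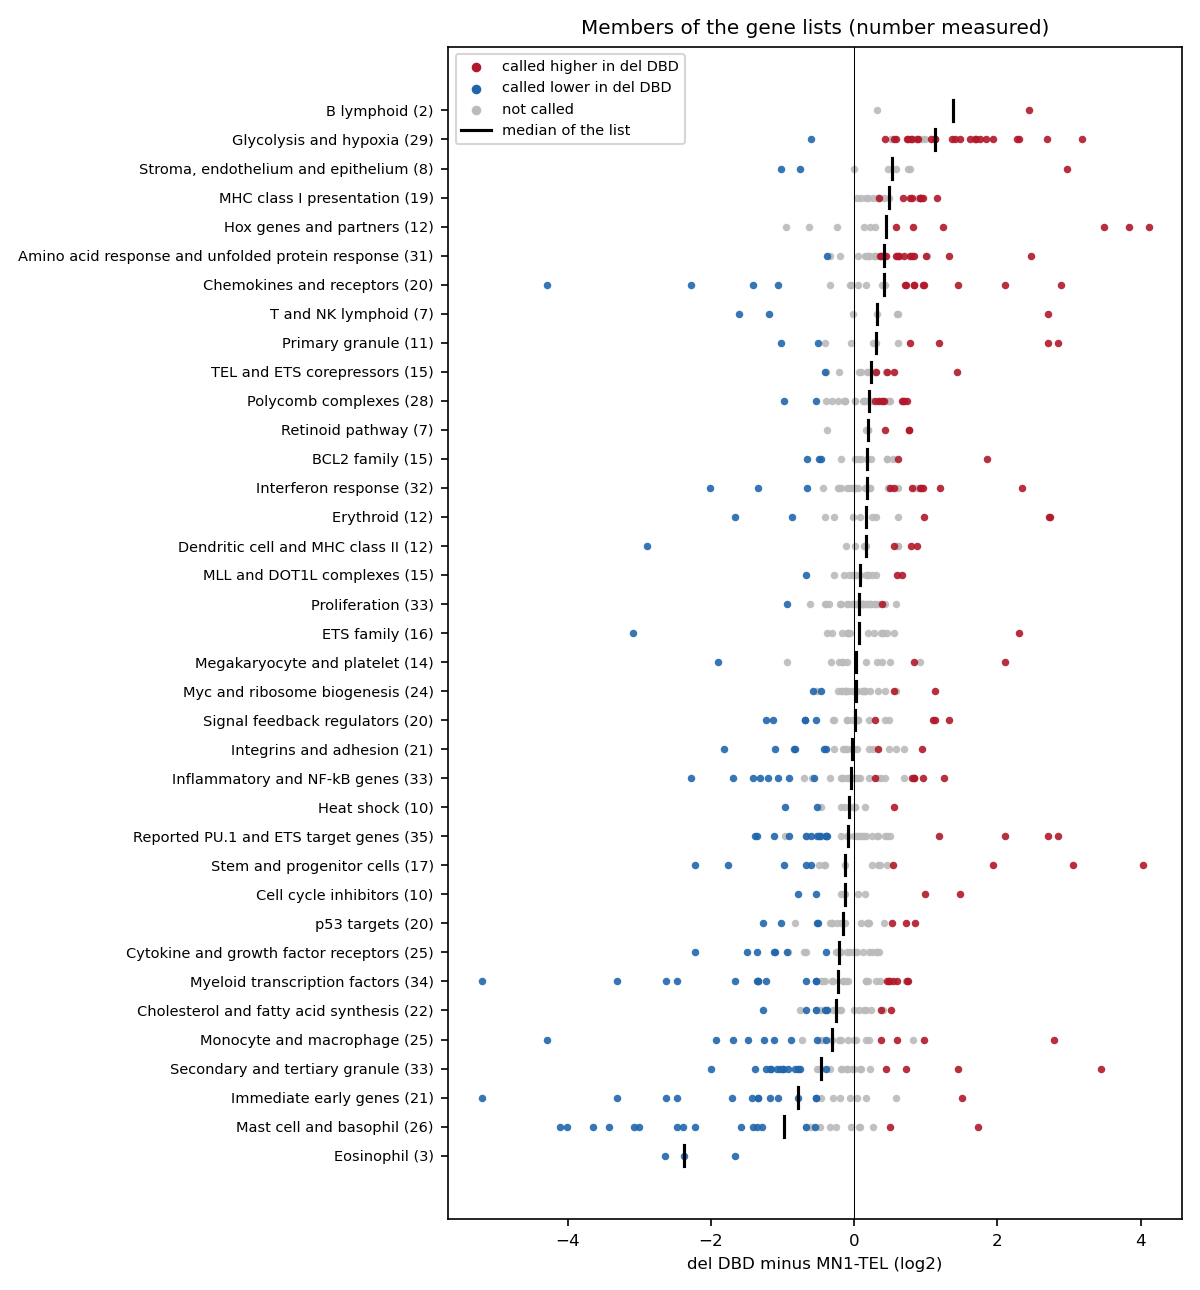
Difference between del DBD and MN1-TEL (log2, horizontal axis) of every measured member of the 37 gene lists, ordered by list median, with the number measured in brackets. Red points are members called higher in del DBD, blue points members called lower, grey points members not called, and black bars list medians. Glycolysis and hypoxia members lie almost all right of 0, and Mast cell and basophil and Immediate early genes mostly left of it.

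Hoxa5, Hoxa7 and Hoxa9, homeobox genes of the A cluster that are known to keep leukaemic progenitors in self-renewal, were higher in del DBD. Hoxa5 measured 10.02, 10.60 and 10.24 in del DBD arrays, against 5.84, 6.52 and 6.17 in MN1-TEL arrays and 8.84, 9.16 and 9.01 in MN1 arrays. It was at least 16.9-fold higher (adjusted p = 3.59e-06), detected on 2 MN1-TEL arrays. Hoxa7 measured 10.93, 11.10 and 10.90 in del DBD arrays, against 6.76, 7.66 and 7 in MN1-TEL arrays and 10.45, 10.15 and 10.16 in MN1 arrays, a rise of 3.83 (SE 0.21, adjusted p = 5.47e-06) or 14.3-fold. Hoxa9, a common partner of MEIS1 in leukaemia, measured 7.97, 8.64 and 8.90 in del DBD arrays, against 5.13, 4.94 and 5 in MN1-TEL arrays, none of which detected it, and 8.18, 8.53 and 8.25 in MN1 arrays. It was at least 5.44-fold higher (adjusted p = 9.29e-06), and its other probe rose by 3.64 (adjusted p = 6.95e-06 in a fit of every probe). For all 3 genes each del DBD array exceeded each MN1-TEL array by more than 2 log2 units. Against MN1, Hoxa5 was 1.28 higher in del DBD (adjusted p = 0.000939) and Hoxa7 0.72 higher (adjusted p = 0.0239), while Hoxa9 differed by 0.18 (adjusted p = 0.544).

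The other members of the Hox list changed less. Of 12 measured Hox genes and partners, 6 were called higher and 0 lower, with a median of 0.44, or 0.26 with dim members at their bound. Hoxa2 and Hoxa4 were close to background, at least 1.03-fold and at least 1.29-fold higher. Meis1, a homeobox cofactor of HOX proteins, measured 12.98, 12.83 and 12.89 in del DBD arrays, against 12.59, 12.16 and 12.18 in MN1-TEL arrays, a rise of 0.59 (SE 0.18, adjusted p = 0.0396) that was lost in 11 of 21 alternatives with an adjusted p of up to 0.107. Its relative Meis2 measured 5.48, 5.55 and 5.44 in del DBD arrays, against 6.91, 7.01 and 5.43 in MN1-TEL arrays and 12.20, 12.17 and 12.09 in MN1 arrays. Without MN1-TEL replicate 2 the list counted 5 higher and 1 lower, and of the 5 genes detected on all 9 arrays 2 were higher. The probes of Hoxa10 were not detected on any array.

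**Figure D4:**
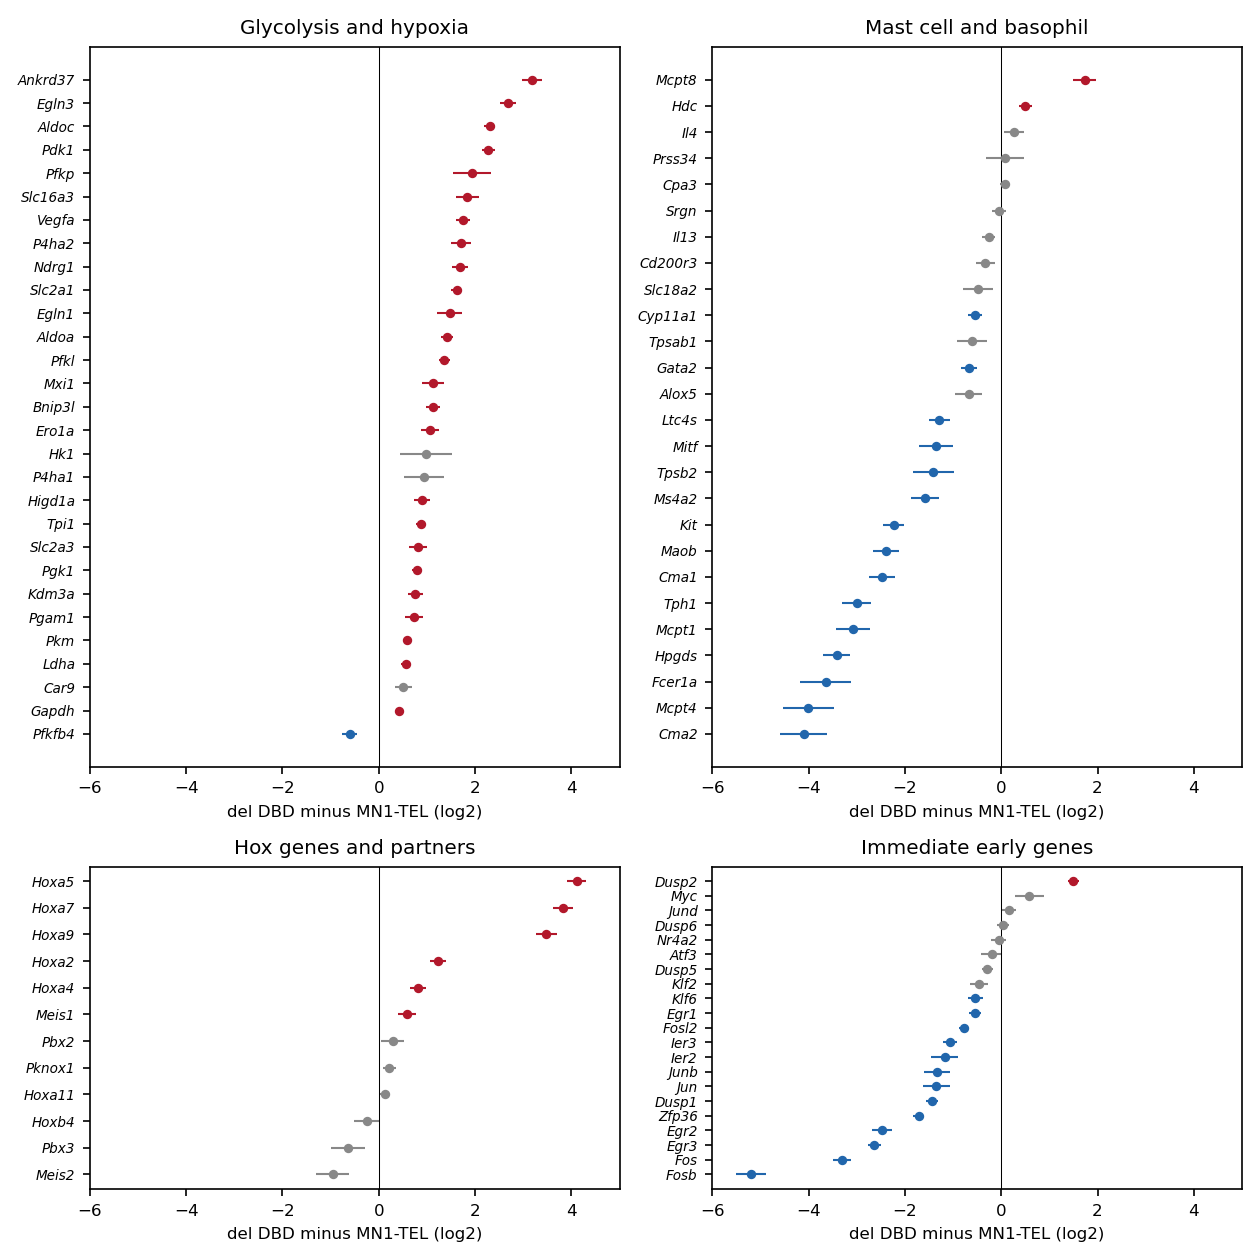
Difference between del DBD and MN1-TEL (log2, horizontal axes) of each measured gene in 4 lists, with points at the fitted value, also for dim genes, and bars of 1 SE either side. Red genes were called higher in del DBD, blue ones lower and grey ones not called. Hoxa5, Hoxa7 and Hoxa9 stand apart from the rest of their list, and Cma2, Mcpt4 and Fcer1a lie lowest among mast cell genes.

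Stem and progenitor markers moved both ways, and their list had no common direction, with 4 of 17 higher, 5 lower and a median of -0.13. Sox4, a transcription factor of progenitors and leukaemias, measured 10.10, 9.80 and 9.81 in del DBD arrays, against 6.55, 6.88 and 7.13 in MN1-TEL arrays and 11.48, 11.47 and 11.34 in MN1 arrays, a rise of 3.05 (SE 0.15, adjusted p = 4.11e-06). Egfl7, a secreted factor that hosts a microRNA, rose by 1.94 (SE 0.19, adjusted p = 0.00011). Kit, the receptor of SCF, measured 12.35, 11.95 and 12.19 in del DBD arrays, against 14.75, 13.86 and 14.56 in MN1-TEL arrays and 13.64, 13.53 and 13.81 in MN1 arrays. The del DBD arrays were lowest of the 3 groups, and Kit fell by 2.23 (SE 0.22, adjusted p = 9.94e-05) or 4.69-fold relative to MN1-TEL, with -2.91 at its other probe. Prom1, the surface protein CD133, was at least 2.68-fold lower (adjusted p = 0.000102), not detected on any del DBD array. Cd34, a marker of progenitors, measured 10.68, 10.36 and 10.40 in del DBD arrays, against 10.46, 10.02 and 9.94 in MN1-TEL arrays, and was not called at 0.34 (SE 0.15, adjusted p = 0.127). Flt3 was not detected on any array.

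Of the granule genes of neutrophils, those of primary granules, which promyelocytes make, were higher in 4 of 11 measured and lower in 2, with a median of 0.30. Mpo, myeloperoxidase, measured 13.97, 13.87 and 14.12 in del DBD arrays, against 11.47, 11.52 and 10.87 in MN1-TEL arrays and 14.48, 14.33 and 14.11 in MN1 arrays, a rise of 2.70 (SE 0.18, adjusted p = 1.41e-05) or 6.51-fold, and its 3 other probes rose by 2.78 to 3.31. Elane, neutrophil elastase, measured 12.05, 12.55 and 12.75 in del DBD arrays, against 9.52, 10.03 and 9.26 in MN1-TEL arrays and 10.53, 10.41 and 10.31 in MN1 arrays. Its rise was 2.84 (SE 0.22, adjusted p = 3.42e-05) or 7.18-fold, and the del DBD arrays were highest of the 3 groups. Prtn3, proteinase of the same granule, rose by 1.18 (SE 0.18, adjusted p = 0.00119), while Ctsg, cathepsin G, was not called at 0.30 (SE 0.10, adjusted p = 0.052). Serpinb1a, an inhibitor of these proteases, fell by 1.02 (SE 0.19, adjusted p = 0.00391).

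Secondary and tertiary granule genes, which later stages make, were higher in 4 of 33 measured and lower in 14, with a median of -0.47, or -0.39 with dim members at their bound. Without del DBD replicate 1 the count was 9 lower, with a median of -0.30, and among the 17 detected on all 9 arrays 4 were higher and 4 lower, with a median of -0.10. Ltf, lactoferrin of secondary granules, measured 13.67, 13.51 and 13.72 in del DBD arrays, against 14.71, 15.11 and 14.79 in MN1-TEL arrays, and fell by 1.24 (SE 0.24, adjusted p = 0.00483). Lyz2, lysozyme of granulocytes and macrophages, measured 13.16, 13.84 and 13.54 in del DBD arrays, against 14.85, 14.71 and 15.13 in MN1-TEL arrays, and fell by 1.39 (SE 0.19, adjusted p = 0.000656), with -2.06 and -0.83 at its other probes. Both genes stayed far above the MN1 arrays, where Ltf was not detected and Lyz2 measured 7.87, 7.53 and 7.90. Cd177, a neutrophil surface protein, fell by 1.17 (SE 0.19, adjusted p = 0.00194), and Mmp9, the gelatinase of tertiary granules, was at least 4.01-fold lower (adjusted p = 0.000213). The calprotectin genes S100a8 and S100a9 were not called, at 0.22 and -0.10. Against the direction of its list, Chil3, a chitinase-like secreted protein, measured 13.54, 14 and 13.93 in del DBD arrays, against 10.50, 10.44 and 10.20 in MN1-TEL arrays and 8.98, 9.75 and 9.42 in MN1 arrays, a rise of 3.44 (SE 0.20, adjusted p = 6.92e-06) or 10.9-fold. Its probes may also bind close relatives. The chemokine receptor gene Cxcr2 rose by 1.45 (SE 0.20, adjusted p = 0.000742).

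Markers of monocytes and macrophages were lower in 9 of 25 measured genes and higher in 4, with a median of -0.31, and among the 16 detected on all 9 arrays 4 were lower and 2 higher. Besides Cx3cr1, Tlr2, a receptor for bacterial lipoproteins, measured 10.77, 10.98 and 10.81 in del DBD arrays, against 12.30, 12.34 and 12.36 in MN1-TEL arrays, and fell by 1.48 (SE 0.11, adjusted p = 2.98e-05). Mpeg1, a pore-forming protein of macrophages, fell by 1.26 (SE 0.19, adjusted p = 0.00104), and Csf1r, the M-CSF receptor, fell by 1.12 (SE 0.17, adjusted p = 0.00111). F13a1, a coagulation factor subunit that monocytes express, went against them, with 6.70, 8.05 and 7.45 in del DBD arrays, against 4.72, 4.65 and 4.48 in MN1-TEL arrays, and was at least 2.54-fold higher (adjusted p = 0.000218). Among 12 genes of dendritic cells and MHC class II, 3 were higher and 1 lower, a called share of 33.3% against 29.4% of all genes. Only 1 was higher and 1 lower with median scaling, and likewise without del DBD replicate 1 or without del DBD replicate 3. The gene that was lower is Cd86, a costimulatory ligand of T cells, and it measured 7.18, 6.87 and 6.75 in del DBD arrays, against 10.06, 9.80 and 9.60 in MN1-TEL arrays, and fell by 2.89 (SE 0.15, adjusted p = 4.53e-06) or 7.39-fold. Tcf4 rose by 0.88 (SE 0.12, adjusted p = 0.000714), and H2-Ab1, a class II chain with overlapping arrays, was called at 0.80 (adjusted p = 0.0349), a call lost in 9 of 21 alternatives. The third, H2-DMa, another class II gene, was called at 0.56 (adjusted p = 0.0303) and lost its call in 7 of 21.

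Mast cell and basophil genes were lower in 15 of 26 measured and higher in 2, with a median of -0.98, or -0.94 with dim members at their bound. The chymase gene Cma2 measured 9.03, 7.6 and 9.40 in del DBD arrays, against 13.50, 12 and 12.82 in MN1-TEL arrays and 10.67, 11.27 and 11.26 in MN1 arrays, and fell by 4.10 (SE 0.48, adjusted p = 0.000289) or 17.2-fold. Mcpt4, another mast cell chymase, fell by 4.01 (SE 0.53, adjusted p = 0.000541), and Cma1 fell by 2.48 (SE 0.27, adjusted p = 0.000194). Members of this protease family are alike in sequence, so a probe may bind several. Fcer1a, the chain of the high-affinity receptor that binds IgE, measured 8.39, 8.52 and 8.49 in del DBD arrays, against 13.44, 10.75 and 12.13 in MN1-TEL arrays. The MN1-TEL arrays were spread over more than 2 log2 units but all lay above the del DBD arrays, and Fcer1a fell by 3.64 (SE 0.53, adjusted p = 0.000898). The difference was -2.97 without MN1-TEL replicate 1 and -4.32 without MN1-TEL replicate 2. Tph1, which starts serotonin synthesis, measured 11.59, 11.13 and 11.68 in del DBD arrays, against 15.04, 13.77 and 14.60 in MN1-TEL arrays, and fell by 3.00 (SE 0.31, adjusted p = 0.000127). Hpgds, a prostaglandin D synthase, fell by 3.42 (SE 0.28, adjusted p = 4.32e-05).

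The mean level of the list was 9.87 to 10.38 on del DBD arrays, against 11.19 to 11.90 on MN1-TEL arrays, and 10.69 to 11.03 on MN1 arrays. The 2 genes that were higher, 1 of them without del DBD replicate 1, del DBD replicate 3 or MN1-TEL replicate 3, were Mcpt8, a protease of basophils, with 1.73 (SE 0.24, adjusted p = 0.000724), and Hdc, which makes histamine, with 0.50 (SE 0.14, adjusted p = 0.0234). Cpa3, the mast cell carboxypeptidase, measured 14.99, 15.03 and 15.10 in del DBD arrays, against 14.97, 14.98 and 14.96 in MN1-TEL arrays, and was not called. Gata2, a transcription factor of mast cells and progenitors, fell by 0.67 (SE 0.16, adjusted p = 0.014). In these bulk samples fewer cells of a type and less RNA of a gene per cell cannot be told apart. Kit belongs to this list as well as to the progenitor list, and the part of mast cells in its change was not tested. Only 3 of the 12 eosinophil genes listed were measured, and all 3 were lower. Prg2, major basic protein, fell by 2.38, and the ribonuclease gene Ear6, not detected on any del DBD array, was at least 2.71-fold lower (adjusted p = 0.000182). The transcription factor gene Gata1, which also belongs to the erythroid list, was at least 2.99-fold lower (adjusted p = 0.00095). Epx, Siglecf and Il5ra were on the platform but were detected on at most 1 array.

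Receptors for cytokines and growth factors were lower in 7 of 25 measured genes and higher in 0, a share of 28% near that of all genes. Csf2rb2, a beta chain that serves IL-3 in the mouse, measured 12.60, 12.17 and 12.35 in del DBD arrays, against 13.91, 13.53 and 13.77 in MN1-TEL arrays, and fell by 1.36 (SE 0.15, adjusted p = 0.000206). The TGF-beta receptor genes Tgfbr1 and Tgfbr2 fell by 1.10 (SE 0.12, adjusted p = 0.000188) and 0.94 (SE 0.11, adjusted p = 0.000248). Il3ra, the alpha chain of the IL-3 receptor, was not called at 0.35 (SE 0.22, adjusted p = 0.275). Without MN1-TEL replicate 2 the list counted 2 higher and 8 lower.

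Immediate early genes, which are transcribed within minutes of a growth factor or stress signal, were lower as a group. Of 21 measured, 13 were lower and 1 higher, with a median of -0.78. Fos, the partner of JUN in AP-1, measured 10.28, 9.78 and 10.24 in del DBD arrays, against 13.67, 13.12 and 13.43 in MN1-TEL arrays and 10.07, 9.94 and 9.62 in MN1 arrays, and fell by 3.31 (SE 0.19, adjusted p = 6.68e-06) or 9.88-fold. Egr3, a zinc finger factor, measured 10.29, 10.16 and 10.32 in del DBD arrays, against 12.99, 12.66 and 13.02 in MN1-TEL arrays, and fell by 2.63 (SE 0.14, adjusted p = 5.47e-06), and Egr2 fell by 2.48 (SE 0.21, adjusted p = 5.23e-05). For Fos, Egr2 and Egr3 no array of del DBD came within 1.5 log2 units of MN1-TEL. Zfp36, which destabilises cytokine mRNAs, fell by 1.71 (SE 0.11, adjusted p = 1.13e-05), and Dusp1, a phosphatase of MAP kinases, fell by 1.43 (SE 0.12, adjusted p = 4.90e-05). Egr1 measured 14.23, 13.94 and 14.23 in del DBD arrays, against 14.72, 14.46 and 14.83 in MN1-TEL arrays, and fell by 0.54 (SE 0.13, adjusted p = 0.0124). Dusp2, a related phosphatase, was the member that rose, with 10.42, 10.53 and 10.68 in del DBD arrays, against 8.92, 9.23 and 8.97 in MN1-TEL arrays. Of 10 heat shock genes 1 was higher and 2 were lower (1 without del DBD replicate 3, MN1-TEL replicate 1 or MN1-TEL replicate 3), Dnajb1 among them at -0.96, a called share of 30% near that of all genes.

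Genes of glycolysis and the hypoxia response rose together. Of 29 measured, 25 were higher, 1 was lower and 3 were not called, with a median of 1.12, or 0.98 with dim members at their bound, and 16 rose at least 2-fold. Ankrd37, a known target of hypoxia-inducible factor, measured 10.58, 10.41 and 10.81 in del DBD arrays, against 7.31, 7.86 and 7.10 in MN1-TEL arrays and 11.13, 11.56 and 11.13 in MN1 arrays, a rise of 3.18 (SE 0.21, adjusted p = 1.14e-05) or 9.04-fold. Egln3, an oxygen-dependent hydroxylase that acts on hypoxia-inducible factor, measured 13.23, 13.35 and 13.34 in del DBD arrays, against 10.28, 10.98 and 10.60 in MN1-TEL arrays and 13.50, 13.56 and 13.54 in MN1 arrays. Its rise was 2.68 (SE 0.16, adjusted p = 7.10e-06), with 2.75 and 0.23 at its other probes, the last not called (adjusted p = 0.376). Pdk1, which keeps pyruvate out of the mitochondrial cycle, measured 11.45, 11.82 and 11.83 in del DBD arrays, against 9.53, 9.23 and 9.53 in MN1-TEL arrays, a rise of 2.27 (SE 0.14, adjusted p = 8.58e-06). The glycolytic aldolase gene Aldoc rose by 2.31 (SE 0.12, adjusted p = 4.02e-06). In each of these 4 genes every MN1-TEL array lay below every del DBD and every MN1 array.

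Higher members included genes from glucose uptake to lactate export. The main glucose transporter gene, Slc2a1, rose by 1.62 (SE 0.11, adjusted p = 1.52e-05), the phosphofructokinase subunit gene Pfkl by 1.36 (SE 0.11, adjusted p = 3.62e-05) and the aldolase gene Aldoa by 1.41 (SE 0.12, adjusted p = 5.23e-05). Gapdh, an enzyme often used for scaling, measured 14.92, 14.93 and 14.96 in del DBD arrays, against 14.61, 14.40 and 14.52 in MN1-TEL arrays, a rise of 0.42 (SE 0.09, adjusted p = 0.00781). Ldha, lactate dehydrogenase, rose by 0.56 (SE 0.11, adjusted p = 0.00441), and Slc16a3, the lactate exporter, was at least 1.68-fold higher (adjusted p = 0.000426). The angiogenic factor gene Vegfa measured 11.87, 11.86 and 11.87 in del DBD arrays, against 9.90, 10.47 and 9.98 in MN1-TEL arrays, a rise of 1.75 (SE 0.15, adjusted p = 5.45e-05). Pfkfb4, a regulator of phosphofructokinase, was the member called lower, and fell by 0.60 (SE 0.15, adjusted p = 0.0164). Hk1 and P4ha1 at 0.98 and 0.95 were not called, and MN1-TEL replicate 2 was lowest in both. The counts were 24 higher and 1 lower with median scaling and 26 higher and 1 lower without MN1-TEL replicate 2, and without del DBD replicate 1 or 2 none was lower. The mean level of the list was 11.32 to 11.52 on del DBD arrays, against 10.07 to 10.26 on MN1-TEL arrays, and 11.32 to 11.49 on MN1 arrays.

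Hypoxia-inducible factors bind an ACGTG core, and the promoter windows of 2 hypoxia genes with large rises are shown with that core in capitals. Both lie on the minus strand, Ankrd37 at chr8:45999801-46000100 and Egln3 at chr12:54203825-54204124. Both were chosen after the values were seen and only among windows that hold the core, so its presence in them is no result.
Ankrd37: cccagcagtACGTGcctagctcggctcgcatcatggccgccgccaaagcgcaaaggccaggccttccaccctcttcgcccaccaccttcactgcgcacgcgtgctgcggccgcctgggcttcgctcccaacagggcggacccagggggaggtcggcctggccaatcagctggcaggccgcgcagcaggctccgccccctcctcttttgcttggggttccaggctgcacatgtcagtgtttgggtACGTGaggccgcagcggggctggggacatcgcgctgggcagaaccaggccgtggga
Egln3: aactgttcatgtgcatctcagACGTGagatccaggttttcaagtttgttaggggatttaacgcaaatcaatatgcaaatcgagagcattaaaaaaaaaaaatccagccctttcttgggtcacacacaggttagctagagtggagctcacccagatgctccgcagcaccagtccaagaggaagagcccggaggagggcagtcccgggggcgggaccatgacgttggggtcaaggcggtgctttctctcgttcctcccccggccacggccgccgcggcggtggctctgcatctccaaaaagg
ACGTG on either strand was held by 22 of 38 windows of the measured hypoxia genes (57.9%) and by 19 of 33 windows of those called higher (57.6%). The share was 26.5% over windows of all tested genes and 28.5% over those of all genes called higher. Because the list was made of glycolysis and hypoxia genes, its share may exceed that of all genes whatever the arrays show. Windows of 1 gene with several starts overlap, and 26 of the 29 genes had a window.

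Genes of the amino acid response and the unfolded protein response were higher in 13 of 31 measured and lower in 1, with a median of 0.41. Trib3, a pseudokinase induced by amino acid shortage, measured 11.67, 11.68 and 11.79 in del DBD arrays, against 8.92, 9.79 and 9.03 in MN1-TEL arrays and 12.16, 12.36 and 12.29 in MN1 arrays, a rise of 2.47 (SE 0.20, adjusted p = 4.42e-05) or 5.53-fold. Ddit3, the stress factor CHOP, rose by 1.32 (SE 0.21, adjusted p = 0.00166), Asns, asparagine synthetase, by 0.83 (SE 0.12, adjusted p = 0.000931) and Chac1, which degrades glutathione, by 0.81 (SE 0.15, adjusted p = 0.00352). Atf4, the factor that drives these genes, was not called at 0.21 (SE 0.11, adjusted p = 0.174). With median scaling the list counted 7 higher and 1 lower, without del DBD replicate 3 it counted 7 higher and 0 lower, and with only the 6 arrays 8 higher and 0 lower. Cholesterol and fatty acid synthesis genes counted 2 higher and 5 lower of 22, a called share of 31.8% against 29.4% of all genes. Median scaling gave 0 higher and 11 lower. Leaving out 1 array gave 0 higher and 2 lower without del DBD replicate 1, 0 higher also without del DBD replicates 2 or 3, and up to 7 lower, without MN1-TEL replicate 2. Among them the mevalonate kinase gene Mvk was at least 1.56-fold lower (adjusted p = 0.00196).

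Of 19 measured genes of antigen presentation by MHC class I, 9 were higher and 0 lower, with a median of 0.48. H2-M3, a class I molecule that presents bacterial peptides, rose by 1.16 (SE 0.15, adjusted p = 0.000415). The immunoproteasome subunit gene Psmb9 measured 12.52, 12.39 and 12.54 in del DBD arrays, against 11.49, 11.72 and 11.35 in MN1-TEL arrays, a rise of 0.96 (SE 0.11, adjusted p = 0.000275). The peptide transporter genes Tap1 and Tap2 rose by 0.92 (SE 0.11, adjusted p = 0.000294) and 0.91 (SE 0.14, adjusted p = 0.00136). The classical class I genes H2-K1 and H2-D1 gave 0.68 (SE 0.19, adjusted p = 0.0227) and 0.33 (SE 0.26, adjusted p = 0.377), of which the H2-D1 difference was not called, and B2m, the shared light chain, was not called at 0.16. With median scaling 6 genes were higher and 0 lower.

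Interferon-stimulated genes did not move as a block, with 8 of 32 higher, 3 lower and a called share of 34.4%. Ifit3 measured 7.53, 7.24 and 7.13 in del DBD arrays, against 9.15, 9.43 and 9.35 in MN1-TEL arrays, and fell by 2.01 (SE 0.17, adjusted p = 4.42e-05) or 4.03-fold, and Ifitm6 fell by 1.34 (SE 0.15, adjusted p = 0.000235). In the other direction Isg20, an exonuclease, was at least 4.02-fold higher (adjusted p = 0.000158), and the antiviral gene Rsad2 rose by 1.2 (SE 0.17, adjusted p = 0.000704). With median scaling the counts were 5 higher and 3 lower. Of 33 inflammatory and NF-kB genes 6 were higher and 8 lower, with Nfkbiz, an atypical NF-kB inhibitor, down by 1.70 and the cytokine gene Tnf by 1.32 (log2 differences -1.70 and -1.32).

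Of 20 chemokine and chemokine receptor genes 9 were higher and 4 lower, and of the 11 detected on all 9 arrays 6 were higher and 2 lower. Ccl24, an attractant of eosinophils, measured 8.19, 7.03 and 8.03 in del DBD arrays, against 4.75, 4.88 and 4.93 in MN1-TEL arrays, which did not detect it, and was at least 3.22-fold higher (adjusted p = 0.000107). Pf4, a chemokine of platelets and megakaryocytes, measured 10.60, 10.08 and 10.30 in del DBD arrays, against 8.02, 9.29 and 7.35 in MN1-TEL arrays, a rise of 2.11 (SE 0.40, adjusted p = 0.00428). Ccl2, the monocyte attractant, measured 9.10, 8.09 and 8.41 in del DBD arrays, against 11.23, 10.52 and 10.71 in MN1-TEL arrays, and fell by 2.29 (SE 0.29, adjusted p = 0.000403). Ccl6 fell by 1.41 (SE 0.21, adjusted p = 0.000954). Each of these genes had groups that did not overlap. Integrins and adhesion genes counted 2 higher and 6 lower of 21, a called share of 38.1% against 29.4% of all genes. Their balance was not steady: 1 higher and 3 lower without del DBD replicate 3, and 4 higher and 3 lower without MN1-TEL replicate 3. Itga9, an integrin alpha chain, was at -1.82.

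**Figure D5:**
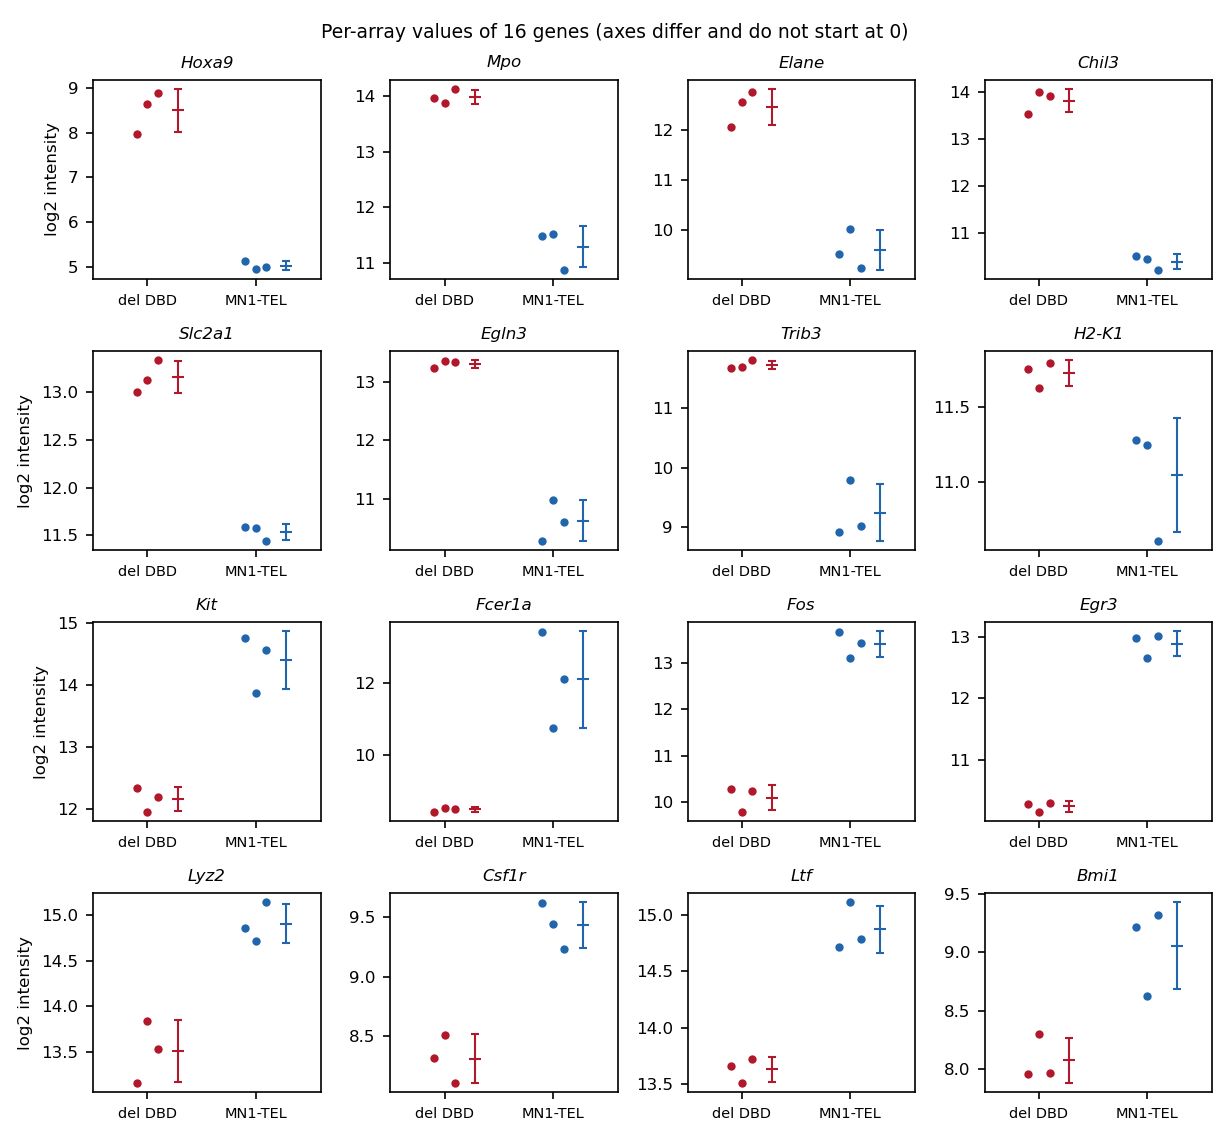
Log2 normalized intensity (vertical axes, which differ and do not start at 0) of 16 genes on each del DBD array (red) and MN1-TEL array (blue), with the mean and SD at the side of each group. In all 16 genes the groups do not overlap, and the widest spread is that of Fcer1a in the MN1-TEL arrays.

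Bmi1, the Polycomb gene named in the series title, measured 7.96, 8.30 and 7.96 in del DBD arrays, against 9.22, 8.63 and 9.32 in MN1-TEL arrays and 8.73, 8.44 and 8.48 in MN1 arrays. It fell by 0.98 (SE 0.19, adjusted p = 0.00429) or 1.98-fold and kept its call in all 21 alternatives, with an adjusted p of up to 0.0209. Of 28 measured Polycomb genes, Bmi1 included, 8 were higher and 2 lower, none by 2-fold or more. The called share was 35.7%, against 29.4% of all genes, and the counts were 4 and 2 with median scaling. The count rests on single arrays: 2 were higher and 1 lower without del DBD replicate 3, as with only the 6 arrays, and 10 and 3 without MN1-TEL replicate 2. Leaving out any of the other 4 arrays of both groups gave 3 or 4 higher. Phc1, a partner of BMI1 in the same complex, rose by 0.68 (SE 0.14, adjusted p = 0.0058), and Mtf2, which recruits the other main Polycomb complex, by 0.66 (SE 0.15, adjusted p = 0.00946). Cdkn2a, the locus that BMI1 is known to repress, measured 7.58, 5.90 and 6.59 in del DBD arrays, against 7.87, 6.31 and 5.43 in MN1-TEL arrays, with both groups spread and overlapping and no call at 0.15 (SE 0.57, adjusted p = 0.869). Each of the 2 groups detected Cdkn2a on only 2 arrays, so its values lie near the detection limit. Cdkn2b, the neighbouring inhibitor of cyclin-dependent kinases, measured 9.92, 9.27 and 9.71 in del DBD arrays, against 8.28, 8.64 and 7.53 in MN1-TEL arrays, a rise of 1.48 (SE 0.26, adjusted p = 0.00275). Cdkn1b, another inhibitor, was at least 1.3-fold higher (adjusted p = 0.0013), and Cdkn2c fell by 0.78 (SE 0.13, adjusted p = 0.00186).

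Of 33 measured proliferation genes 1 was higher and 1 lower, with a median of 0.07. Leaving out 1 array gave 0 to 2 higher and 1 or 2 lower. E2f2, a factor that controls entry into DNA synthesis, fell by 0.93 (SE 0.11, adjusted p = 0.000239), and Aurkb, a mitotic kinase, rose by 0.39 (SE 0.12, adjusted p = 0.0331), though this did not pass in 11 of 21 alternatives. Genes of Myc and ribosome biogenesis counted 2 higher and 2 lower of 24, a called share of 16.7% that was below the 29.4% of all genes. There were 3 higher and 0 lower without del DBD replicate 3, and 1 lower without any other single array. Myc itself was not called at 0.59 (SE 0.30, adjusted p = 0.173). The p53 targets counted 3 higher and 4 lower of 20, with Zmat3 at -1.27 and Phlda3 at -1.02. Their called share was 35%, against 29.4% of all genes, and median scaling gave 3 higher and 8 lower. Bcl2, an inhibitor of apoptosis, measured 10.88, 10.83 and 10.85 in del DBD arrays, against 8.90, 9.20 and 8.88 in MN1-TEL arrays and 11.10, 11.01 and 11.45 in MN1 arrays, a rise of 1.86 (SE 0.14, adjusted p = 2.45e-05) or 3.63-fold. Its 5 other probes gave 0.32 to 2.30, all positive. Bcl2l1, a relative reported as a TEL target, was not called at 0.45 (SE 0.51, adjusted p = 0.553), and without MN1-TEL replicate 2 the difference was -0.27 (adjusted p = 0.367). Only 2 MN1-TEL arrays detected Bcl2l1, and its bound was 1.04-fold.

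Among the ETS family itself 1 of 16 measured genes was higher and 1 lower, a share of 12.5%, with 3 higher and 1 lower without MN1-TEL replicate 1. Ets1, a founding member expressed in lymphoid cells, measured 6.16, 5.41 and 5.50 in del DBD arrays, against 9.02, 8.85 and 8.46 in MN1-TEL arrays and 7.21, 7.38 and 7.50 in MN1 arrays, and was at least 6.51-fold lower (adjusted p = 1.69e-05). Etv4 measured 7.86, 7.92 and 8.08 in del DBD arrays, against 5.90, 5.43 and 5.62 in MN1-TEL arrays and 8.95, 9 and 8.69 in MN1 arrays, and was at least 3.71-fold higher (adjusted p = 9.40e-06). Spi1, the myeloid ETS factor PU.1, was not called at -0.32 (SE 0.17, adjusted p = 0.195). Of 35 genes reported as targets of PU.1 or other ETS factors 4 were higher and 12 lower, with a median of -0.08. The 4 that rose, Elane, Mpo, Pf4 and Prtn3, are described above, and among those that fell were Csf2rb2, Lyz2 and Csf1r. Tyrobp, an adaptor of activating receptors, fell by 0.92 (SE 0.13, adjusted p = 0.000677).

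Corepressors that TEL is known to recruit, and their relatives, counted 4 higher and 1 lower of 15, and 1 and 1 with median scaling. The called share of 33.3% was near the 29.4% of all genes. Leaving out any 1 array other than MN1-TEL replicates 2 and 3 gave 2 higher. Hdac7, a class II histone deacetylase, measured 9.15, 9.77 and 9.62 in del DBD arrays, against 8.23, 7.88 and 8.13 in MN1-TEL arrays, a rise of 1.43 (SE 0.17, adjusted p = 0.000258). Hdac3, the deacetylase of the NCoR complex, was called at 0.31 (adjusted p = 0.0398) and lost that call in 14 of 21 alternatives. In the retinoid pathway 3 of 7 measured genes were higher and 0 lower. Of the 3, Aldh1a3 was detected on no del DBD or MN1-TEL array and passed the filter only through the MN1 arrays. Its means of 5.85 in del DBD and 5.08 in MN1-TEL arrays are background. Tgm2, a transglutaminase that retinoic acid induces, measured 14.33, 14.45 and 14.27 in del DBD arrays, against 13.39, 13.48 and 13.87 in MN1-TEL arrays, a rise of 0.77 (SE 0.17, adjusted p = 0.00945). Ep300, a coactivator of retinoid receptors, was called at 0.43 (adjusted p = 0.0352), lost in 10 of 21 alternatives. Of 34 myeloid transcription factors 7 were higher and 12 lower, and 9 of the 12 fell at least 2-fold. Median scaling gave 4 higher and 14 lower, and 4 were higher also without del DBD replicate 2, del DBD replicate 3, MN1-TEL replicate 1 or MN1 replicate 2. Among the 9 that fell at least 2-fold, Egr3, Fos, Fosb and Egr2 had the smallest adjusted p of the list and were described above. Egr3, Fos and Fosb are also counted in the list of immediate early genes, so the 2 lists are not separate results. Gfi1, a repressor active in granulocyte precursors, rose by 0.74 (SE 0.11, adjusted p = 0.000877), Id2 fell by 1.23 (SE 0.19, adjusted p = 0.00113), and Cebpe, a factor of late granulocytes, was not called at -0.44 (SE 0.46, adjusted p = 0.515).

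Few markers of other lineages were measured. Called were 5 of 12 erythroid genes (41.7%), 3 of 14 megakaryocyte and platelet genes (21.4%), 3 of 7 of T and NK cells (42.9%), 1 of 2 of B cells (50%) and 3 of 8 of stroma, endothelium and epithelium (37.5%), against 29.4% of all genes. Without MN1-TEL replicate 2 the genes of T and NK cells counted 3 higher and 2 lower, against 1 and 2 with all arrays. The adult beta globin genes Hbb-bs and Hbb-bt, which are nearly identical in sequence, rose by 2.73 (SE 0.41, adjusted p = 0.00118) and 2.72 (SE 0.41, adjusted p = 0.00113), while other erythroid genes such as Klf1 and Alas2 were at -0.02 and 0.07 and not called. Of 12 erythroid genes 3 were higher and 2 lower. Thy1, a surface glycoprotein of T cells and some progenitors, measured 13.30, 13.17 and 13.51 in del DBD arrays, against 9.93, 11 and 10.94 in MN1-TEL arrays, a rise of 2.70 (SE 0.25, adjusted p = 8.48e-05). Lat, an adaptor of T cells and mast cells, fell by 1.61 on the log2 scale, and Gata3, a T cell transcription factor, was at least 2.07-fold lower. Cd79b, a chain of the B cell receptor, was at least 4.78-fold higher (adjusted p = 1.71e-05). Vwf, the platelet adhesion factor, fell by 1.91 (SE 0.19, adjusted p = 0.000117). In the list of stroma, endothelium and epithelium Col4a1, a basement membrane collagen, was at least 2.97-fold higher (adjusted p = 0.00011), and the other markers with a call, Cdh1 and Acta2, were at -1.03 and -0.76, of which Acta2 lost its call in 10 of 20 alternatives with an adjusted p of up to 0.146. Of 26 stroma, endothelium and epithelium genes listed 8 were measured, of 18 B lymphoid genes 2 and of 24 T and NK lymphoid genes 7.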

How the data were processed

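Groups and replicate numbers came from the sample titles. The table that the authors deposited holds, per the file headers, each probe's intensity on every array before normalization, together with a detection p-value. GenomeStudio 2010.3 is named in the submitters' processing notes; later steps are not stated there. A table of normalized intensity values that the authors deposited served as an alternative, and their table of group means was not used.

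Normexp background correction, with negative controls inferred from the detection p-values, was followed by an offset of 16, quantile normalization and log2 (neqc, limma 3.58.1, R 4.3.3). Probes with a detection p under 0.01 on at least 3 of 9 arrays were kept, 15870 of 45281. The platform annotation gave 34885 probes 1 symbol, 18 several and 10378 none, and 34807 symbols were updated through the Entrez identifier. Each of 9136 genes was represented by its brightest kept probe. In a fit of every probe, 664 further probes of called genes were called, 652 of them with an equal sign. All 9 arrays entered 1 fit with the group as the factor (6 residual degrees of freedom), and the two-sided moderated test of del DBD against MN1-TEL was adjusted by the Benjamini-Hochberg method. The steps were tested on simulated data.

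The members and lists were chosen with earlier results of these data known. The rule for naming genes took, from calls without overlap between the groups and with a gene name, the 12 with the largest fitted rise and the 12 with the largest fitted fall, whether or not only a bound can be given. It added at most 4 called members per list, by adjusted p, and a fixed set: Spi1, Mmp3, Bcl2l1, Flt3, Kit, Cd34, Meis1, the Hoxa9 and Hoxa10 genes, Cdkn2b, Cdkn2a, Bmi1, Etv6 and Mn1. Other list members named, the genes of the plot of per-array values and the hypoxia promoters were chosen after their values were seen. Promoters came from RefSeq (GRCm38.p6), which held a window for 7520 of the genes.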

Additional observations from a re-analysis of the deposited data

How the results depend on the processing

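Counts were recomputed with another background or offset, median scaling, the authors' normalized values, other detection filters, other ways of joining probes, only the 6 arrays, a replicate block, array weights, a variance trend and with each array left out. The number of calls, 2689 in all, stayed between 1900 and 3277 when 1 array was left out, with 970 to 1823 higher and 930 to 1454 lower. At 2-fold these leave-one-out ranges were 807 to 945 calls, 396 to 499 higher and 402 to 473 lower, against 847, 412 and 435. Calls in all and in each direction, without regard to fold, were most without MN1-TEL replicate 2 and fewest without del DBD replicate 3. Normexp without controls and with an offset of 50 left 548 genes at 2-fold, 256 of them higher and 292 lower, and the offset of 50 alone left 662, 315 higher and 347 lower. Keeping only genes detected on all 9 arrays left 458, 233 higher and 225 lower, of 7570 tested, since this filter drops genes that are dim in 1 group. With only the 6 arrays there were 1998 calls, 988 higher and 1010 lower, of which 1974 were among the 2689. The labels do not say whether the replicate numbers pair the samples. Deviations of arrays with the same number correlated at -0.013, -0.157 and 0.184, and those with different numbers at -0.417 to 0.308. With 3 arrays per group these correlations cannot decide it. With the replicate block 2446 genes were called, 1216 higher and 1230 lower. For 145 named genes, 2872 of 3000 recomputed values kept direction and side of the threshold, 121 lost the call, 1 gained it and 6 reversed, all of the last in genes that were not called. Etv6, at -0.08 with all arrays, ranged from -0.174 to 0.0238 when 1 array was left out and was above 0 only without del DBD replicate 3. Cdkn2a, at 0.15, gave -0.0117 with array weights and ranged from -0.401 to 0.821, below 0 without del DBD replicate 1 (-0.293) and without MN1-TEL replicate 3. Bcl2l1, at 0.45, gave -0.0028 with array weights and ranged from -0.270 to 0.971, below 0 without MN1-TEL replicate 2. The cause was not tested. Cd34 gained a call without MN1-TEL replicate 1 (0.50). The 121 lost calls fell in 19 genes, most often Hdac3, Meis1, Aurkb and Rrp12. In 33 named genes a setting that kept all arrays moved the fold, not the log2 difference, by over 1.5 times. This held for 32 of them where background and offset both changed and for 21 with the offset of 50 alone. Dim probes limit the size of a difference that the arrays can show, and genes not detected in 1 group have only a bound.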

Other observations

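Of 15 genes of the BCL2 family 2 were higher and 3 lower, which is 33.3%, against 29.4% of all genes, with 1 to 3 higher and 2 or 3 lower when 1 array was left out. Without MN1-TEL replicate 2 there were 3 higher and 2 lower, so the balance was not steady. The 3 lower ones encode proteins that promote apoptosis, but none fell 2-fold and members not called were not compared by function. Bad fell by 0.49 (SE 0.11, adjusted p = 0.00818) and Bid by 0.47 (SE 0.11, adjusted p = 0.011). Bcl2l11, which encodes BIM, was called at -0.66 (adjusted p = 0.0267), a call lost in 6 of 21 alternatives. In the MLL and DOT1L complexes, which maintain Hox transcription, 2 of 15 genes were higher and 1 lower. The called share of 20% was below the 29.4% of all genes. The list counted 0 higher without del DBD replicate 3, and 3 higher and 2 lower without MN1-TEL replicate 2. Mllt3 measured 9.06, 8.69 and 9.17 in del DBD arrays, against 8.65, 8.12 and 8.17 in MN1-TEL arrays and 10.32, 10.22 and 10.29 in MN1 arrays, and rose by 0.66 (SE 0.17, adjusted p = 0.017), though this did not pass in 3 of 21 alternatives. Men1, menin, rose by 0.59 (SE 0.15, adjusted p = 0.0142), not passing in 2 of 21, and Mllt1 fell by 0.67 (SE 0.13, adjusted p = 0.0039).

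Feedback regulators of kinase signalling counted 4 higher and 5 lower of 20, a called share of 45% against 29.4% of all genes. Without 1 array there were 2 (without del DBD replicate 1 or 2) to 5 higher and 2 (without del DBD replicate 1 or 3) to 6 lower. The kinase gene Pim3 measured 11.79, 11.51 and 11.93 in del DBD arrays, against 10.65, 10.37 and 10.24 in MN1-TEL arrays, a rise of 1.32 (SE 0.14, adjusted p = 0.000171). Socs5, a suppressor of cytokine signalling, rose by 1.13 (SE 0.15, adjusted p = 0.000567). The MAP kinase phosphatase gene Dusp4 measured 10.64, 10.08 and 10.25 in del DBD arrays, against 11.75, 11.35 and 11.58 in MN1-TEL arrays, and fell by 1.24 (SE 0.16, adjusted p = 0.000541). Bcl6, a repressor, fell by 1.14 (SE 0.23, adjusted p = 0.00619).

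The 2064 kept probes without 1 gene were tested on their own, and 199 were higher and 146 lower in del DBD. That is a smaller share than the 29.4% of all genes. It is also smaller than in the fit of every probe with 1 gene, where 3391 of 13806 were called.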
